A study of Bos taurus with 30 samples.

Results

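Stromal cells of the bovine endometrium kept under 10 ng/mL insulin were compared with stromal cells kept under 1 ng/mL insulin, by bulk RNA sequencing of 6 stromal libraries out of the 30 libraries of the series, 3 at each concentration and paired by replicate number. The cells were primary cells, taken from cows that were not pregnant and whose uteri were at an early luteal stage. In each microfluidic device (endometrium on a chip) a stromal-enriched population lay on the underside of a porous membrane and an epithelial population on its upper side, and medium with insulin in acetic acid and PBS was flowed through the device at a physiologic glucose concentration. Both groups therefore shared the vehicle, the glucose and the presence of epithelial cells, and they differed in the insulin concentration, chosen to stand for the low and the high end of circulating insulin. Cells of the 2 compartments were lifted separately with trypsin, so a stromal library can hold epithelial cells carried over from the other side of the membrane. Of the 27607 genes in the count table, 12772 passed the filter on low counts and were tested, 12281 of them protein-coding.

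Insulin acts through the insulin receptor and, more weakly, the IGF1 receptor, and the kinase cascade they start raises glucose uptake, lipid synthesis and growth and represses genes driven by FOXO transcription factors. Endometrial stromal cells answer in addition to IGF1 and IGF2, whose access to the receptor is set by IGF-binding proteins (IGFBPs) that the stroma itself secretes. Stromal cells also carry the progesterone and estrogen receptors, and CEBPB, a transcription factor of the C/EBP family, is a known regulator of stromal differentiation.

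The stromal libraries held 10796279 to 12391819 counts at 1 ng/mL and 10409287 to 13214728 counts at 10 ng/mL, so that 3 counts correspond to between 0.227 and 0.288 CPM, the gene's counts scaled to a common library total. Vimentin (VIM), the stromal intermediate filament, lay between 3925 and 4449 CPM at 1 ng/mL and between 4024 and 4047 CPM at 10 ng/mL, against a mean of 606 CPM in the epithelial libraries at 10 ng/mL. All 31 genes found for the stromal markers were detected in every stromal library, with summed levels of 71145 to 95496 CPM at 1 ng/mL and 64564 to 100509 CPM at 10 ng/mL. The leukocyte markers summed to 8.72 to 10.9 CPM at 1 ng/mL and to 9.73 to 32.0 CPM at 10 ng/mL, with 2 or 3 of 9 genes at 0 in each library. The highest of these sums was in replicate 1 at 10 ng/mL. The same genes summed to 232 CPM or more in every epithelial library. The endothelial markers summed to 202 to 459 CPM at 1 ng/mL and to 208 to 414 CPM at 10 ng/mL, the smooth muscle and pericyte markers to 4996 to 6909 and 4996 to 7123 CPM, and the ciliated cell markers to 15.6 to 22.5 and 18.9 to 20.8 CPM.

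The epithelial share of each stromal library was taken as the median, over 37 epithelial marker genes, of the stromal level divided by the level in the epithelial library of the same concentration and replicate. It was 0.0923%, 0.0264% and 0.111% in replicates 1, 2 and 3 at 1 ng/mL. At 10 ng/mL it was 3.89% in replicate 1, 0.0099% in replicate 2 and 0.484% in replicate 3. The difference between the concentrations was thus 3.80 percentage points in pair 1 and 0.373 points in pair 3, and in pair 2 the share was lower at 10 ng/mL by less than 0.1 point. Taken as the ratio of summed marker levels instead, the share was 1.73%, 2.14% and 1.54% at 1 ng/mL and 5.07%, 2.32% and 1.82% at 10 ng/mL, so that in pair 2 the direction turned and the level was far above the median-based one. In vehicle libraries the share was 0.109%, 3.92% and 0.0826%, so a share near 4% was not particular to the higher insulin concentration.

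**Figure D1:**
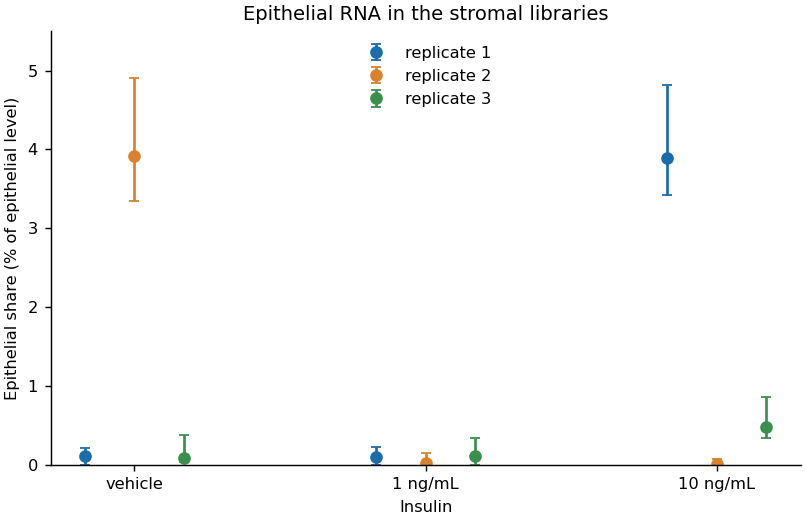
The y axis gives the epithelial share of each stromal library in percent of the epithelial level, the x axis the insulin concentration, with a point for the median and a bar for the quartiles over 37 epithelial markers in each of 3 replicates. At 10 ng/mL replicate 1 sits at 3.89% and replicate 3 at 0.484%, while the 1 ng/mL libraries lie at or below 0.111%.

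Keratin 18 (KRT18), the keratin by which the epithelial population is recognised, shows the pattern in single genes. It stood at 0.556, 0.254 and 0.242 CPM in replicates 1, 2 and 3 at 1 ng/mL, and at 16.1, 0.0877 and 1.25 CPM at 10 ng/mL. EPCAM, an epithelial adhesion molecule, was at 0.185, 0 and 0 CPM at 1 ng/mL and at 17.7, 0 and 1.54 CPM at 10 ng/mL. Both genes were high in replicate 1 at 10 ng/mL and near the floor of 3 counts in replicate 2 at either concentration. Of the 38 epithelial markers, 28 did not pass the filter on low counts. Of the 10 tested, 5 were higher at an unadjusted p under 0.05 and none was lower, beside 2.48% higher and 1.21% lower among all protein-coding genes. The filter can pass a marker mainly through its counts at 10 ng/mL, which favours higher ones among the 10. In bulk libraries, more epithelial cells and more of these RNAs per cell cannot be told apart.

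Across all genes, 3 protein-coding genes of 12281 tested passed an adjusted p of 0.05 with a log2 fold change beyond 0.1 (0.0244%), in edgeR's quasi-likelihood test with the replicate as a block, and all 3 were higher at 10 ng/mL. They included IGFBP5 and KRT19. Without the replicate block none was called, although 92 protein-coding genes had an unadjusted p under 0.05 in that fit. DESeq2 with the replicate in the model called 1 protein-coding gene, IGFBP5. Beside these calls, the weaker threshold of an unadjusted p under 0.05 was passed by 304 protein-coding genes that were higher at 10 ng/mL (2.48%) and 148 that were lower (1.21%). These are the genes sorted below, and being past the unadjusted threshold alone is not a call.

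Each gene's change was also predicted from mixing alone, by adding to its 1 ng/mL level the difference in epithelial share times its level in the paired epithelial library. A gene was said to follow the share where the prediction had the sign of the observed change and at least 0.5 of its size, both as the mean over 3 pairs of log2(CPM + 0.5). With the markers set aside, 299 protein-coding genes were higher and 148 were lower past the unadjusted threshold. Of the 299 higher genes 65 followed the share and 234 did not, and none of the 148 lower genes followed it. The rule hardly allows a lower gene to follow, since a larger share lowers a gene only by dilution. For DES, far higher in stroma, mixing predicted -0.02, while the smallest fitted fall among the 148 was -0.11. The genes closest to the limit were ARAP2 just inside, with a predicted change of 0.22 against an observed 0.43, and USP54 just outside, with 0.19 against 0.38.

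**Figure D2:**
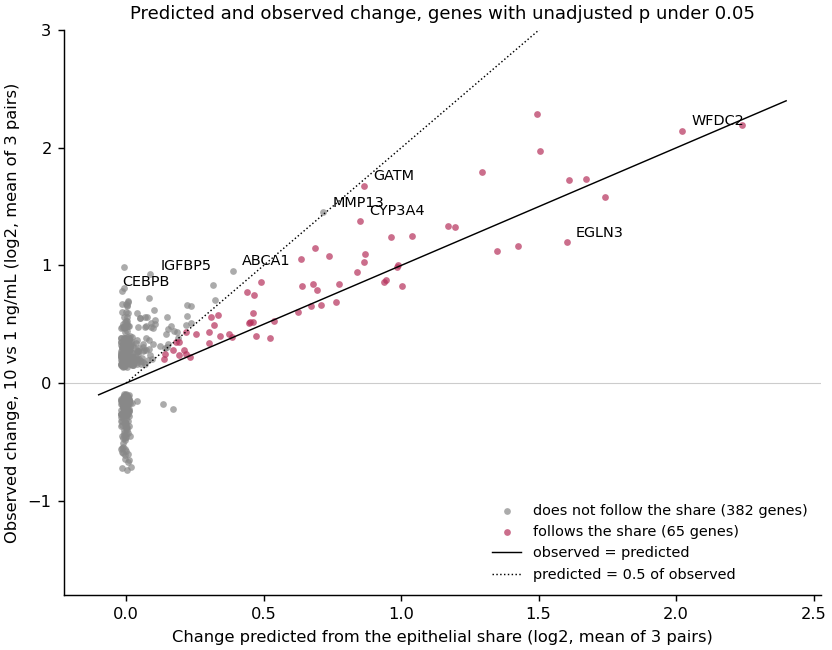
The x axis gives the log2 change predicted from the epithelial share and the y axis the observed log2 change, both as means over 3 pairs, for the 447 protein-coding genes past the unadjusted threshold without markers. The 65 genes that followed the share spread along the line of equal values, with WFDC2 near its upper end, while IGFBP5 and CEBPB stand near a predicted change of 0.

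The 65 genes that followed the share had a median fitted log2 fold change of 1.09, with a range from 0.20 to 4.48. Their median change was 1.72 in pair 1, 0.10 in pair 2 and 0.35 in pair 3, an order that the rule itself favours, since the prediction is largest in pair 1. In pair 2, where the median-based share did not rise, 44 of the 65 were higher at 10 ng/mL and 20 lower, and 38 were higher in all 3 pairs. The 65 were chosen for a rise in a fit that included pair 2, which itself favours these counts. Of these genes 50 were epithelial-biased, meaning at least 8-fold above the stromal level in epithelial libraries of the glucose experiment at 5 mM. Those libraries took no part in the comparison. The rule itself favours such genes, since the prediction grows with the epithelial level relative to the stromal one. Among all tested genes outside the markers, the 239 epithelial-biased ones had median changes of 0.71, -0.04 and 0.08 in pairs 1, 2 and 3. For the 502 genes biased at least 8-fold to stroma these medians were -0.04, 0.04 and 0.06, and for all 12272 genes 0.08, -0.02 and 0.00. In pair 1, 220 of the 239 epithelial-biased genes were higher at 10 ng/mL (92.1%), in pair 2 108 (45.2%), and in pair 3 149 (62.3%). Among all 12272 genes the shares were 67.2%, 45.7% and 49.9%.

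KRT19, a keratin of simple epithelia and one of the markers, was at 2.69, 0.339 and 2.02 CPM at 1 ng/mL and at 74.9, 0.175 and 6.82 CPM at 10 ng/mL. It rose by a fitted 3.62 ± 0.47 (SE; adjusted p = 0.0478), and replicate 2 was lower at 10 ng/mL than at 1 ng/mL. Without replicate 1 its fold was 1.53 and it was no longer called (adjusted p = 0.0603). When the predicted epithelial reads were subtracted from every stromal library, KRT19 turned to -4.75, a value that rests on the few reads left in libraries where nearly all were taken away.

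CLDN4, a tight junction claudin and another of the markers, was at 0.648, 0.0848 and 1.29 CPM at 1 ng/mL and at 27.9, 0.175 and 2.31 CPM at 10 ng/mL (log2 fold change 3.43 ± 0.63 SE, adjusted p = 0.188). It was not called, and as for KRT19 its level at 10 ng/mL was high in replicate 1 and under the floor of 3 counts in replicate 2.

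LAMB3 and LAMA3, laminin chains of the epithelial basement membrane named here after their values were seen, were not called either. LAMB3 was at 4.91, 1.19 and 5.16 CPM at 1 ng/mL and at 114, 1.75 and 11.6 CPM at 10 ng/mL (log2 fold change 2.97 ± 0.50 SE, adjusted p = 0.172). LAMA3 was at 17.8, 20.8 and 30.8 CPM at 1 ng/mL and at 328, 28.0 and 54.2 CPM at 10 ng/mL (1.89 ± 0.52 SE, adjusted p = 0.80). Unlike KRT19, both genes were also higher in pair 2, by 0.42 each, where the predictions were -0.22 for LAMB3 and -0.03 for LAMA3.

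Further genes that followed the share, named here after their values were seen, included WFDC2, a secreted protein of glandular epithelium, at 0.463, 0 and 0.888 CPM and then 38.0, 0 and 2.50 CPM. CFB, complement factor B, was at 0.37, 0.0848 and 1.13 CPM at 1 ng/mL and at 19.1, 0.0877 and 2.11 CPM at 10 ng/mL. EGLN3, an oxygen-sensing prolyl hydroxylase, was at 2.59, 0.848 and 0.888 CPM and then at 28.5, 0.877 and 1.25 CPM. In replicate 2 WFDC2 was at 0 at both concentrations, and CFB and EGLN3 differed by 0.01 and 0.03 on the log2 scale. After subtraction of the predicted epithelial reads, edgeR's test called WFDC2 (log2 fold change 8.89 ± 0.74 SE, adjusted p = 0.0046), whereas EGLN3 turned to -1.75. The WFDC2 value starts from levels of 0.888 CPM or less at 1 ng/mL before subtraction.

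Several genes the study names for this comparison lay in the same group. The 22 symbols searched for them matched 19 genes in the table, of which 8 did not pass the filter on low counts: TNS4, EHF, DEGS2, CKMT1A, CLDN7, CLDN6, ERBB3 and SCIN. In replicate 1 at 10 ng/mL these 8 stood between 0.53 CPM (DEGS2) and 13.5 CPM (EHF), in replicate 2 between 0 and 0.263 CPM and in replicate 3 between 0 and 1.44 CPM, while at 1 ng/mL no library held more than 0.556 CPM of any of them. EHF, an epithelial ETS-family transcription factor, was at 0.463, 0 and 0.0807 CPM at 1 ng/mL and at 13.5, 0 and 1.15 CPM at 10 ng/mL. Each of the 8 followed the share by the rule above and was at least 8-fold higher in epithelial cells in the glucose experiment. CKMT1A has a near-identical copy and its reads may be split between copies. When every gene with at least 1 count was kept in the fit, 138 of 15343 protein-coding genes were called, 104 of them epithelial-biased. How many of the 15343 were epithelial-biased was not counted. This filter lets in genes with counts almost only in replicate 1 at 10 ng/mL, such as EHF, so the 104 can partly reflect the filter.

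Of the 11 study genes that were tested, 7 were higher and 3 lower past the unadjusted threshold, and IGFBP5 was called. The study chose them on these samples, so this count is not independent evidence of their direction. GATM, the first enzyme of creatine synthesis, followed the share (0.463, 0.0848 and 0.888 CPM, then 12.4, 0.351 and 1.83 CPM; log2 fold change 2.96 ± 0.56 SE, adjusted p = 0.219). The study's DES1 was searched under 2 symbols, DEGS1 and DEGS2, and at most 1 of them can be the gene meant. DEGS1, a dihydroceramide desaturase, differed by -0.02 ± 0.05 (SE; adjusted p = 1.00). SLC2A3, a glucose transporter, was lower in pairs 1 and 2 and level in pair 3 (-0.24 ± 0.08 SE, adjusted p = 1.00).

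CYP3A4, a steroid- and drug-oxidising cytochrome P450, met the rule for following the share but differed from the genes above in pair 2. It was at 5.19, 5.17 and 3.87 CPM in replicates 1, 2 and 3 at 1 ng/mL and at 31.7, 8.86 and 7.78 CPM at 10 ng/mL. The pair changes of 2.50, 0.72 and 0.92 compared with predictions of 1.93, -0.02 and 0.64, so the level at 10 ng/mL was higher as well in the pair whose median-based share did not rise. The fitted log2 fold change was 1.56 ± 0.27 (SE; adjusted p = 0.179), and without replicate 1 it was 0.89 (adjusted p = 0.0249). Reads of the CYP3A genes can be shared between family members, which makes the assignment to CYP3A4 uncertain.

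ABCA1, the transporter that exports cholesterol to apolipoproteins, fell outside the rule, with a mean predicted change of 0.39 against an observed 0.96. It was at 10.0, 3.48 and 5.16 CPM at 1 ng/mL and at 39.1, 4.03 and 9.13 CPM at 10 ng/mL, with pair changes of 1.92, 0.19 and 0.77 against predictions of 0.89, -0.02 and 0.29. The fitted value was 1.23 ± 0.24 (SE; adjusted p = 0.248). It was the only one of 10 tested genes of cholesterol efflux and LXR targets past the unadjusted threshold, and the list's median change was 0.01 against 0.00 for all protein-coding genes. MMP13, a collagenase, lay next to the limit of the rule at 0, 0 and 0.968 CPM and then 3.41, 0 and 3.36 CPM. ALDH1A3, which makes retinoic acid, was at 163, 184 and 156 CPM and then at 247, 207 and 174 CPM, with a predicted 0.15 against an observed 0.31.

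The clearest difference that did not follow the share was in IGFBP5, which binds IGF1 and IGF2 and is secreted by stromal cells. It was at 7.87, 40.2 and 11.9 CPM in replicates 1, 2 and 3 at 1 ng/mL and at 20.2, 71.2 and 19.1 CPM at 10 ng/mL. It rose in each of the 3 pairs, by 1.31, 0.82 and 0.67, and the fitted log2 fold change was 0.91 ± 0.10 (SE; adjusted p = 0.0395). The 2 groups overlapped, since replicate 2 was high at both concentrations, and the difference appears within pairs. Mixing predicted 0.24, -0.00 and 0.02 for the pairs, and after subtraction of the predicted epithelial reads the fold was 0.89 (adjusted p = 0.0053).

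IGFBP5 kept a log2 fold change between 0.80 and 0.98 with any replicate left out, and its adjusted p was 9.9e-06 without replicate 1, 0.0704 without replicate 2 and 2.6e-14 without replicate 3. Each of these edgeR fits rests on 4 libraries, and their p-values can be extreme. Without replicate 3 the epithelial marker KRT19 had an adjusted p of 7.8e-56. With no replicate block the fold was 0.88 and the adjusted p 1.00. In vehicle libraries its levels were 24.0, 94.2 and 9.64 CPM, so the 1 ng/mL level was the lowest of the 3 in replicates 1 and 2 and the vehicle level in replicate 3. The log2 change from vehicle was -0.97 ± 0.21 (SE; adjusted p = 0.438) at 1 ng/mL and -0.00 ± 0.22 (SE; adjusted p = 0.999) at 10 ng/mL, comparisons that share their vehicle libraries with each other and their insulin libraries with the one above.

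The other IGFBPs did not pass the adjusted threshold. IGFBP2 was at 45.3, 101 and 30.4 CPM at 1 ng/mL and at 58.7, 106 and 33.5 CPM at 10 ng/mL (0.16 ± 0.07 SE), and IGFBP6 was at 248, 273 and 300 CPM and then at 258, 330 and 329 CPM (0.14 ± 0.06 SE). IGFBP3 (-0.07 ± 0.08), IGFBP4 (0.09 ± 0.05) and IGFBP7 (-0.05 ± 0.06) were closer to 0, each value with its SE, and IGFBP3 and IGFBP7 turned to 0.06 and 0.04 without replicate 1. IGFBP5 was thus the called member among 6 tested, and without replicate 1 IGFBP6 was called as well (0.21, adjusted p = 0.0428). Of 25 tested genes of the insulin and IGF axis, receptors and substrates included, 2 were higher past the unadjusted threshold, IGFBP5 and IGFBP2. None was lower and the median was 0.02, beside 2.48% higher and 1.21% lower among all protein-coding genes.

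**Figure D3:**
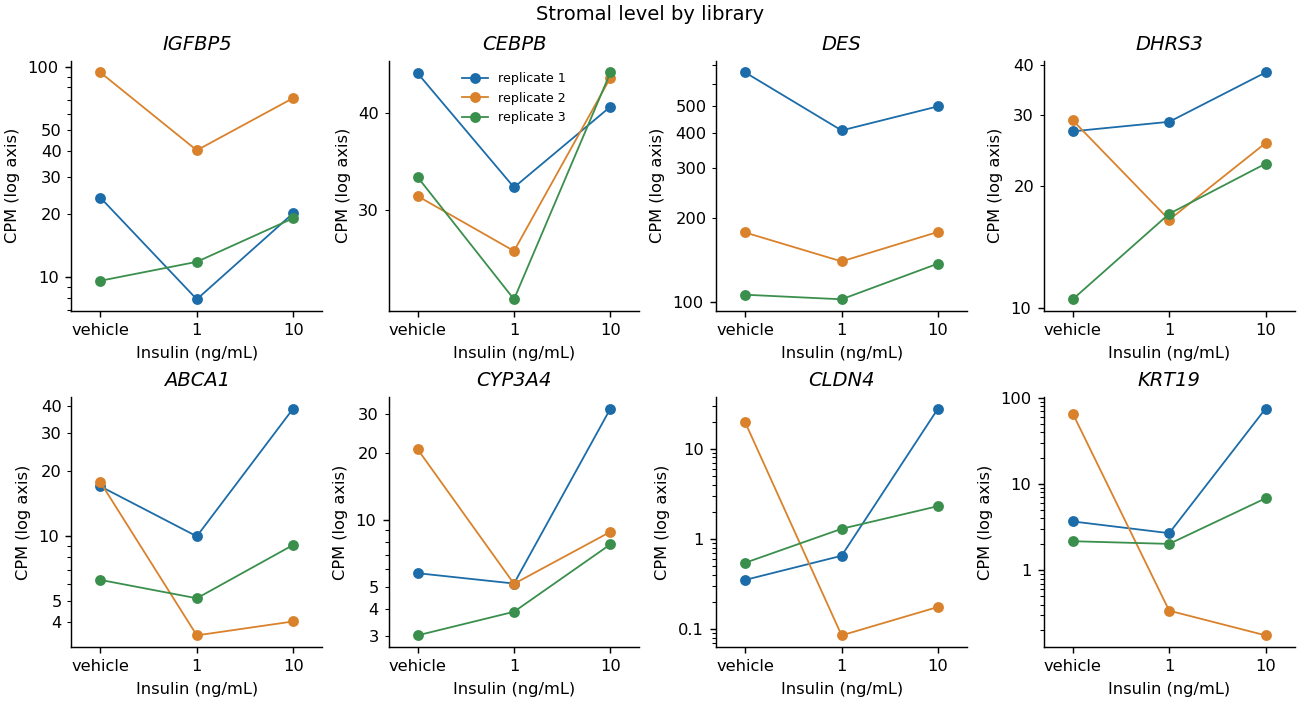
Each panel gives the level of a gene in CPM on a log axis against the insulin concentration, with a line for each of 3 replicates. IGFBP5, CEBPB, DES and DHRS3 are higher at 10 than at 1 ng/mL in all 3 replicates, whereas KRT19 and CLDN4 are high at 10 ng/mL in replicate 1 and in vehicle in replicate 2.

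CEBPB came closest to a call among the other protein-coding genes that were higher and did not follow the share. It was at 32.0, 26.5 and 23.0 CPM at 1 ng/mL and at 40.7, 44.4 and 45.1 CPM at 10 ng/mL, so every library at 10 ng/mL lay above every library at 1 ng/mL. The pair changes were 0.34, 0.73 and 0.96 with predictions at 0, and the fitted log2 fold change was 0.66 ± 0.11 (SE; adjusted p = 0.179). The difference was largest in the pairs with little or no epithelial RNA, and without replicate 1 it was 0.86 (adjusted p = 5.1e-06), in a fit that rests on 4 libraries. In vehicle libraries CEBPB stood at 45.0, 31.2 and 33.0 CPM, overlapping both insulin groups.

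CEBPB belongs to a list of 28 tested immediate early, C/EBP and NR4A genes, of which 5 were higher past the unadjusted threshold and none was lower, with a median of 0.10, beside 2.48% higher and 1.21% lower among all protein-coding genes. Beside CEBPB these were JUND, JUN, EGR3 and DUSP5. JUND, an AP-1 subunit, was at 67.5, 66.1 and 61.2 CPM at 1 ng/mL and at 75.7, 84.8 and 81.5 CPM at 10 ng/mL (0.29 ± 0.07 SE, adjusted p = 0.624), again with groups that did not overlap. JUN and EGR3, both transcription factors of the growth factor response, were higher in 2 of 3 pairs, and DUSP5, a phosphatase of ERK kinases, followed the share. Without replicate 1, EGR1 (0.31), EGR3 (0.45), JUND (0.40) and JUNB (0.21) were called. In pair 1 EGR1 and JUNB were lower at 10 ng/mL, with changes of -0.11 and -0.08, EGR3 was level and JUND was higher.

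The remaining protein-coding genes with the smallest p among those that did not follow the share and moved one way in all 3 pairs were MT-ND6, DES and H1FX. DES encodes desmin, a muscle-type intermediate filament that myofibroblasts and pericytes can carry. It was at 409, 140 and 102 CPM at 1 ng/mL and at 499, 178 and 137 CPM at 10 ng/mL (0.33 ± 0.06 SE, adjusted p = 0.179), with the replicates far apart and each pair higher by 0.28 to 0.42. The 12 tested smooth muscle and pericyte markers had a median of 0.06. DES and SMTN were the 2 past the unadjusted threshold, both higher, beside 2.48% higher among all protein-coding genes. H1FX, a linker histone, was at 56.9, 51.0 and 54.8 CPM and then at 73.3, 60.9 and 71.5 CPM (0.32 ± 0.06 SE, adjusted p = 0.243), with groups that did not overlap.

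Next to these, named after their values were seen, stood SOX4, a progenitor transcription factor, at 11.4, 20.7 and 19.4 CPM and then 18.8, 25.9 and 27.4 CPM (0.48 ± 0.10 SE, adjusted p = 0.248). PCSK1N, an inhibitor of a prohormone convertase, was at 11.6, 9.41 and 9.36 CPM and then at 14.7, 14.7 and 17.4 CPM (0.60 ± 0.14 SE, adjusted p = 0.406). PCSK1N groups did not overlap, while those of SOX4 did. VEGFA, the angiogenic growth factor, was at 131, 102 and 120 CPM and then at 168, 114 and 151 CPM (0.26 ± 0.06 SE, adjusted p = 0.340), higher in every pair by 0.15 to 0.36 with predictions of 0.20 or less.

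Retinoid handling held 3 higher genes and no lower gene among 16 tested, beside 2.48% higher and 1.21% lower among all protein-coding genes. DHRS3, which reduces retinaldehyde to retinol, was at 28.9, 16.5 and 17.1 CPM at 1 ng/mL and at 38.3, 25.6 and 22.8 CPM at 10 ng/mL (0.45 ± 0.09 SE, adjusted p = 0.265). Its largest pair change, 0.62, was in replicate 2, where the prediction was at 0. CRABP1, a cytoplasmic carrier of retinoic acid, was at 2.50, 0.678 and 0.807 CPM and then at 6.96, 0.351 and 2.02 CPM, higher in 2 of 3 pairs. ALDH1A3 was described above.

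Among 27 tested endometrial stromal regulators 3 were higher past the unadjusted threshold and none was lower, with a median of 0.03, beside 2.48% and 1.21% of all protein-coding genes. PGR, the progesterone receptor, was at 11.8, 12.3 and 13.7 CPM at 1 ng/mL and at 16.3, 14.2 and 18.5 CPM at 10 ng/mL, without overlap of the groups. ESR1, the estrogen receptor, was at 28.0, 26.8 and 27.9 CPM and then at 34.2, 29.2 and 33.5 CPM, again without overlap. Neither passed the adjusted threshold (adjusted p = 0.997 for PGR and 1.00 for ESR1). LIF, a cytokine of embryo implantation, was at 5.74, 7.04 and 11.6 CPM and then at 8.25, 7.72 and 14.3 CPM.

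The lower genes did not follow the share, which the rule hardly allows, and no protein-coding gene among them was called. Of the 148, 113 were lower in all 3 pairs, and their medians in pairs 1, 2 and 3 over the 148 were -0.19, -0.21 and -0.26. The 148 were chosen by a test over these same pairs, which itself favours such values. MT-ND6, a mitochondrially encoded subunit of complex I, was at 65.7, 61.0 and 60.9 CPM at 1 ng/mL and at 49.5, 49.1 and 46.9 CPM at 10 ng/mL, without overlap (-0.39 ± 0.07 SE, adjusted p = 0.172). EMP1, a membrane protein of the PMP22 family, was at 382, 328 and 407 CPM and then at 342, 289 and 355 CPM (-0.20 ± 0.05 SE, adjusted p = 0.597). RPL26, a ribosomal protein named after its values were seen, was at 67.0, 56.1 and 60.8 CPM and then at 58.6, 47.6 and 46.6 CPM (-0.29 ± 0.06 SE, adjusted p = 0.340).

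Of the 13 tested genes for mitochondrially encoded proteins, 10 were lower past the unadjusted threshold and none was higher, beside 1.21% lower among all protein-coding genes, with a median of -0.25. The pairs were unequal, since 12 of the 13 were lower in pair 1 and all 13 in pair 3, but 4 in pair 2. Their medians were -0.21, -0.46 and 0.05 in that order. Of all 12281 protein-coding genes 4023 were lower in pair 1, 6152 in pair 3 and 6663 in pair 2. MT-ND6 and MT-ND4L, another complex I subunit, were among the 4 lower in pair 2. MT-ND4L was at 67.4, 66.3 and 70.1 CPM at 1 ng/mL and at 54.9, 60.8 and 46.3 CPM at 10 ng/mL (-0.36 ± 0.08 SE, adjusted p = 0.517). It overlaps MT-ND4 on the mitochondrial genome, and MT-ND6 lies opposite to the other protein genes, so reads at their borders can be assigned to either neighbour unless counting used strand, which the sources used here do not state. In vehicle libraries MT-ND6 stood at 34.2, 54.6 and 38.5 CPM, lower than at 1 ng/mL in every replicate.

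**Figure D4:**
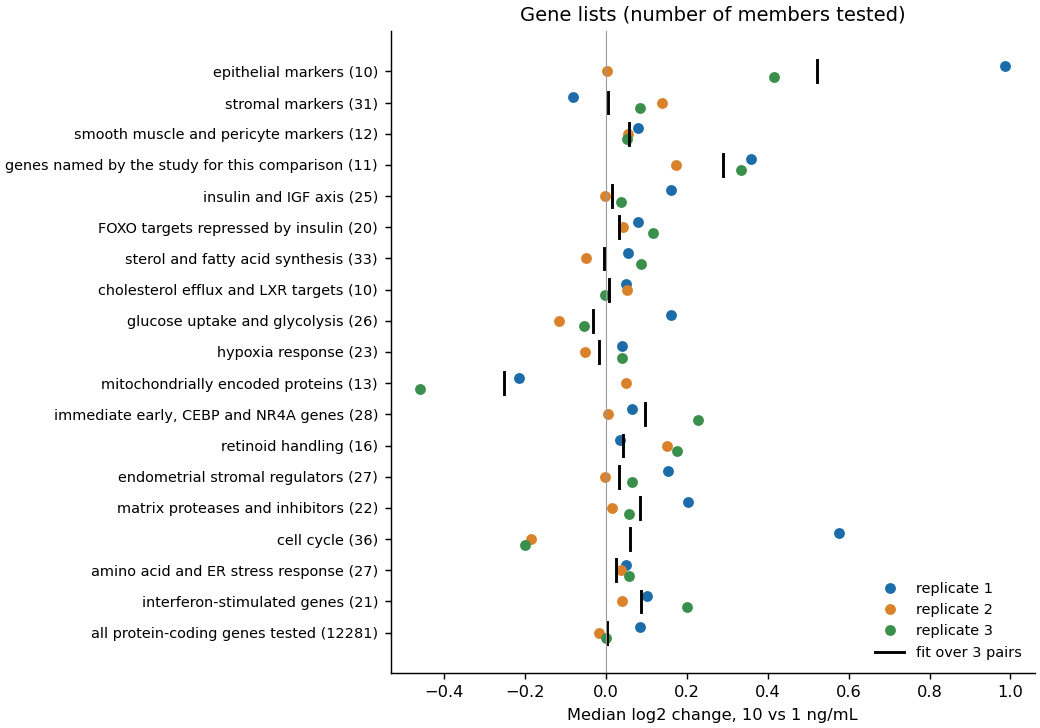
The x axis gives the median log2 change of each gene list from 1 to 10 ng/mL, as a point for each of 3 replicate pairs and a bar for the fit, and the y axis the lists with the number of members tested. The mitochondrially encoded genes lie lowest (fit -0.25, pair 3 at -0.46), the cell cycle list is split between pair 1 at 0.58 and pairs 2 and 3 at -0.18 and -0.20, and the epithelial markers spread from 0.00 in pair 2 to 0.99 in pair 1.

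The 1 gene of another type that was called encodes an RNA of the 7SK family (RF00100, ENSBTAG00000043639), a small nuclear RNA that holds back transcription elongation. It fell from 96.7, 67.7 and 47.2 CPM at 1 ng/mL to 52.7, 36.0 and 36.9 CPM at 10 ng/mL (log2 fold change -0.75 ± 0.10 SE, adjusted p = 0.0478), lower in every pair. A further 3 small RNAs were among the 10 genes with the smallest p that did not follow the share and moved one way in all pairs. A U5 spliceosomal RNA (RF00020, ENSBTAG00000042956) was at 6.76, 4.49 and 5.25 CPM and then at 2.72, 1.40 and 0.769 CPM (log2 fold change -1.8 ± 0.27 SE, adjusted p = 0.0830). The Y RNAs ENSBTAG00000043086 (-1.29 ± 0.23 SE, adjusted p = 0.179) and ENSBTAG00000043461 (-1.33 ± 0.24 SE, adjusted p = 0.182), both of family RF00019, were also lower at 10 ng/mL without overlap of the groups.

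By type, chosen after these values were seen, 5 of 17 tested small nuclear RNAs, 14 of 77 small nucleolar RNAs and 3 of 8 small Cajal body RNAs were lower past the unadjusted threshold and none was higher, beside 1.47% lower and 2.44% higher among all 12772 genes tested. Their median changes were -0.35, -0.17 and -0.18. The type misc_RNA, which holds the 7SK and Y RNA genes, went both ways, with 7 lower and 3 higher of 47. The small nuclear RNAs had pair medians of 0.09, -0.27 and -0.79, so the lower level was in pairs 2 and 3. Such RNAs have many near-identical copies, only uniquely aligned reads were kept, and counts of a single copy are therefore uncertain. In vehicle libraries the 7SK gene was at 43.1, 15.2 and 45.0 CPM, lower than at 1 ng/mL in each replicate.

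Past the unadjusted threshold 2.48% of all protein-coding genes were higher and 1.21% lower. The lists closest to insulin's metabolic action are set beside these shares at that threshold. None of 33 tested genes of sterol and fatty acid synthesis passed it, with FASN, fatty acid synthase, at 0.12 ± 0.06 (SE) and a list median of -0.01. Of 20 tested FOXO targets repressed by insulin, 1 was higher, FOXO3 itself (26.9, 21.5 and 25.2 CPM, then 31.0, 25.9 and 27.9 CPM), and none was lower. Of 26 genes of glucose uptake and glycolysis, SLC2A3 and PFKFB3, a regulator of glycolytic flux, were lower and none was higher.

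The lists that follow stand beside the same 2.48% higher and 1.21% lower among all protein-coding genes. Of 27 genes of the amino acid and endoplasmic reticulum stress response 2 were higher. They were PSPH, which completes serine synthesis, and SLC7A5, a transporter of large neutral amino acids. Of 23 genes of the hypoxia response 2 were higher (VEGFA and EGLN3, the latter following the share) and 2 lower (ADM, a vasodilator peptide, and P4HA1, a collagen hydroxylase). Of 22 matrix proteases and inhibitors 4 were higher, with MMP7 and PLAU following the share and MMP13 and ADAMTS5 not. Of 21 interferon-stimulated genes 2 were higher, IFI27 (5.65, 0.424 and 1.37 CPM, then 13.5, 0.965 and 1.54 CPM) and IFI6 (9.54, 3.82 and 7.26 CPM, then 24.6, 3.68 and 9.22 CPM). IFI27 was higher in all 3 pairs and IFI6 in 2, and 10 of the 21 were epithelial-biased.

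None of 36 cell cycle genes passed the unadjusted threshold, and the pairs differed in direction. In pair 1, 32 of the 36 were higher at 10 ng/mL, with a median of 0.58. In pairs 2 and 3 only 6 and 8 were, with medians of -0.18 and -0.20. Among all 12272 protein-coding genes outside the epithelial markers 67.2%, 45.7% and 49.9% were higher in pairs 1, 2 and 3. RRM2, a subunit of ribonucleotide reductase, was at 30.7, 15.5 and 40.8 CPM at 1 ng/mL and at 63.1, 11.6 and 24.0 CPM at 10 ng/mL. The pair in which the list was higher was also the pair with the larger epithelial share, but the share predicted -0.01 for RRM2. The part of the share in the cell cycle genes was not tested further.

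Because pair 1 carried most of the epithelial RNA, the comparison was repeated with pairs 2 and 3. It called 44 protein-coding genes (0.357%), 34 higher and 10 lower, and 22 genes of other types. Of the 34 higher genes 3 were epithelial-biased, beside 245 of the 12281 protein-coding genes tested with all 3 pairs. In pair 1, 22 of the 34 were higher too, near the share of all genes (8257 of the 12281). Among the 22 were CEBPB, IGFBP5, DES, JUND, H1FX, DHRS3, VEGFA, CYP3A4 and SOX4. Of the 10 lower genes only MT-ND6 was lower in pair 1 as well, where 4023 of the 12281 were lower. The others, named here after their values were seen and including RRM2 (-0.64), DTL (-0.68) and MCM10 (-0.51), which act in DNA replication, and SPP1, MMP3, EREG and ADM, were higher in pair 1. FAP (0.39) and THBS2 (0.44), a protease and a matrix protein of activated fibroblasts, were called higher in these pairs and were lower in pair 1, by 0.11 and 0.23. With 2 pairs left these calls rest on 4 libraries.

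**Figure D5:**
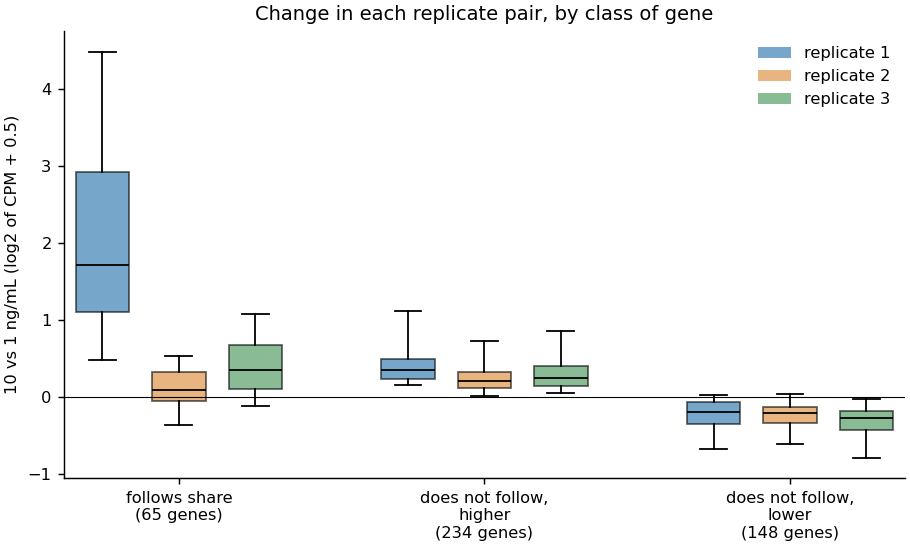
The y axis gives the change from 1 to 10 ng/mL as log2 of CPM + 0.5 in each replicate pair, for the protein-coding genes past the unadjusted threshold, sorted by whether they follow the epithelial share, with boxes for quartiles, lines for medians and whiskers from the 5th to the 95th percentile. The 65 genes that follow the share have a median of 1.72 in pair 1 and 0.10 in pair 2, while the 234 higher genes that do not follow it have medians of 0.35, 0.21 and 0.25. All were chosen by a test over these same pairs.

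In the 6 epithelial libraries of the same concentrations edgeR called no gene between 1 and 10 ng/mL, with 532 protein-coding genes at an unadjusted p under 0.05. The difference between the cell types in the effect of 10 against 1 ng/mL was tested directly in a joint fit, which called 97 of 13323 protein-coding genes (0.728%), 94 with a signed stromal effect above the epithelial one and 3 with one below it. Over all gene types it called 105 of 13924 (0.754%). Of the 94, 90 were epithelial-biased, and 22 of the 97 were epithelial markers. The filter of this fit also let in genes with counts in the epithelial libraries alone. Of the 38 epithelial markers, 28 had too few counts for the stromal comparison. The counts of 90 and 22 therefore partly reflect the filter. How many of the 13323 were epithelial-biased was not counted. The 7 genes called that were not epithelial-biased were IGFBP5, ABCA1, CYP3A4, ANXA8L1, MT-ND6, EMP1 and the unnamed gene ENSBTAG00000053198. That class rests on the libraries at 5 mM glucose. In the insulin libraries at 1 ng/mL ABCA1 averaged 304 CPM in epithelium against 6.21 CPM in stroma and CYP3A4 476 against 4.74 CPM, and ANXA8L1 was at 743, 429 and 488 CPM against 8.98, 5.17 and 5.41 CPM. In stroma the pair change of each of these 3 genes was largest in replicate 1. Without the replicate block edgeR called none, with 236 at an unadjusted p under 0.05, and DESeq2 with the block called 51.

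IGFBP5 differed by 0.05 ± 0.06 (SE) in epithelium, at 46.7, 39.3 and 50.9 CPM under 1 ng/mL and 47.4, 40.9 and 53.6 CPM under 10 ng/mL, and the stromal effect exceeded the epithelial one by 0.86 ± 0.12 (SE; adjusted p = 0.0018). MT-ND6 was at 100.1, 100.4 and 93.3 CPM and then at 103, 111 and 103 CPM in epithelium, and the difference of effects was -0.49 ± 0.08 (SE; adjusted p = 0.0076). EMP1 was lower in stroma and higher in epithelium, with a difference of -0.36 ± 0.07 (SE; adjusted p = 0.0164). For CEBPB no such difference was called, with 11.5, 7.81 and 27.5 CPM and then 29.9, 19.1 and 21.5 CPM in epithelium, an epithelial log2 change of 0.64 ± 0.23 (SE; adjusted p = 0.983) and a difference between cell types of 0.02 ± 0.33 (SE).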

How the data were processed

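RNA of separately harvested epithelial and stromal cells was made into stranded libraries and sequenced as 75 bp single-end reads. Per the study's methods and the labels, the authors trimmed reads with cutadapt, used the Rsubread aligner with the Ensembl release 96 genome of Bos taurus, kept unique alignments and counted them per gene with featureCounts. The deposited values used here are those raw counts. Symbols and gene types came from the deposited comparison tables, whose fold changes and p-values were not used. The symbols matched 14951 of 27607 genes.

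Counts were tested with edgeR 4.0.16 (R 4.3.3): TMM factors, filterByExpr, a quasi-likelihood fit with the replicate number as a block, and Benjamini-Hochberg adjustment over all genes tested. A call needed an adjusted p under 0.05 and a log2 fold change beyond 0.1. The study used a paired design, and same-numbered libraries deviated together from their group means (correlations 0.568, 0.705 and 0.640, against -0.178 or below for different numbers). Nothing in the sources says whether same-numbered devices held cells of the same animals. Alternatives were DESeq2 1.42.0, other filters and models, and leaving out each replicate. The scripts were tested on simulated data.

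CPM are counts scaled by the library total. Markers for the share needed 5 CPM in the paired epithelial library. Named genes were the called protein-coding genes, the 10 smallest p among genes not following the share and moving one way in all pairs, the study's genes, the IGFBPs, the 2 smallest p of each list, KRT18 and VIM, with 1 called gene not reported here. Members, lists and tests were chosen with earlier results of these data known. With the replicate as a block, the p-values set each difference against its unevenness over the 3 pairs, not against the spread between replicates. They speak of these devices only. The floor of 3 counts covers counting error only.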

Additional observations from a re-analysis of the deposited data

Results flagged for a closer look

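In 11 of the 54 genes named by rule the effect of 10 against 1 ng/mL insulin differed between stromal and epithelial cells, in edgeR's quasi-likelihood test of the difference itself with adjustment over all genes (0.754% of all genes tested were called). Most of the 54 were chosen for small p in the same stromal comparison, so the count is no rate to set against that share. Of the protein-coding genes, the stromal effect was the higher one for KRT19 by 3.81 (log2; adjusted p = 0.00012), CLDN4 by 3.72, GATM by 3.20, EGLN3 by 2.64, CYP3A4 by 1.64, ABCA1 by 1.41 and IGFBP5 by 0.86, and the epithelial effects of these 7 genes lay between -0.07 and 0.05. In the first 6 of them, of which the first 4 are epithelial-biased, the stromal level at 10 ng/mL was highest in replicate 1, the library with an epithelial share of 3.89%. The part of that share in the difference was not tested. IGFBP5 averaged 20.0 CPM in stromal and 45.7 CPM in epithelial libraries at 1 ng/mL, and mixing predicted a stromal change of 0.09 for it against an observed 0.93.

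The stromal effect was the lower one for MT-ND6 (-0.49), EMP1 (-0.36), the 7SK-family gene ENSBTAG00000043639 (-0.82) and the U5 gene ENSBTAG00000042956 (-2.15), with adjusted p values between 0.0076 and 0.0347. In each of these 4 genes the level was lower at 10 ng/mL in all 3 stromal pairs. The 7SK-family and U5 genes were named by a rule that required this agreement, and MT-ND6 met that rule among others.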

How the results depend on the processing

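Against 3 called protein-coding genes, DESeq2's size factors and its Wald test each left 1. The fit with every gene of at least 1 count gave 138. With edgeR no gene was called without the replicate block (92 at an unadjusted p under 0.05), with all 9 stromal libraries in the fit (443) or with the epithelial share as a covariate (420). Leaving out 1 replicate gave 23 to 64 calls. Subtracting the predicted epithelial reads left 3 calls, of which 2 were shared with the reported ones and the other was WFDC2. The genes following the share numbered 38 with a limit of 0.8, and 35 to 74 with 1 replicate left out. Taken from summed marker levels, the share was 1.73%, 2.14% and 1.54% at 1 ng/mL and 5.07%, 2.32% and 1.82% at 10 ng/mL, which turns the difference in pair 2. For the difference between cell types, the 97 calls became 0 without the replicate block and 51 with DESeq2, and 36 to 125 with 1 replicate left out. With the share as a covariate KRT19 (-0.31), CLDN4 (-0.79), MMP13 (-0.66) and MMP7 (-0.37) turned negative. After subtraction KRT19 (-4.75) and EGLN3 (-1.75) did. With 1 replicate left out IGFBP3 ranged from -0.14 to 0.063, IGFBP7 from -0.10 to 0.040, MMP7 from -0.10 to 2.62, BIRC5 from -0.026 to 0.28 and VIM from -0.092 to 0.048, each changing sign without replicate 1. Without replicate 3, CLDN4, GATM, MMP7 and MMP13 were not among the genes tested. Beyond these constructions, the cause was not tested. Of the 38 epithelial markers 28 had too few counts to be tested, so their folds rest on description alone.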
